A study of Mus musculus with 20 samples.

Results

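The genes described here code for the translation initiation and elongation factors of mouse intraepithelial lymphocyte precursors (IELPs), the thymocytes that later populate the gut epithelium. They were chosen by name, as every gene whose symbol starts with Eif or Eef, without pseudogenes and joined gene groups. This gave 64 of the 25246 genes listed by the series outside mitochondrial genes and spike-ins. Single CD4- CD8- TCRβ+ thymocytes were sorted from 3 mice and measured by CEL-Seq2, which counts molecules at the 3′ end of each mRNA with unique molecular identifiers (UMIs). The first mouse was a TBGR mouse of 4 weeks, wild type for C-myc. TBGR is a reporter in which T-bet, the transcription factor of mature IELPs, is read as ZsGreen fluorescence, and all 3 mice carried it. The second was a TBGR C-myc fl/fl mouse of 2 weeks, with floxed C-myc alleles. The third was a TBGR C-myc Δ/ΔCd4 mouse of 2 weeks (C-mycD/DCd4 in the labels), in which the Cd4 promoter drives Cre, so C-myc is deleted in cells that have passed through a CD4-expressing stage. Wells were sorted by CD122, the interleukin receptor chain that IELPs gain, and by T-bet reporter level. The CD122- cells had no T-bet signal, and CD122+ cells were split by that signal into a negative (CD122+ T-bet-), an intermediate (T-bet int) and a high gate (T-bet high). The C-myc Δ/ΔCd4 mouse gave the CD122- and the CD122+ T-bet- population.

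Each of the 20 libraries held 96 wells. The TBGR and C-myc Δ/ΔCd4 mice gave 2 libraries for each population. Each of the 8 C-myc fl/fl libraries held 2 populations, so that every fl/fl population was measured in 4 libraries. Of these, 4 held both populations without T-bet signal and the other 4 held the T-bet int with the T-bet high cells, and each set is numbered 1 to 4. Of the 1920 sorted cells, 1413 reached 2000 transcripts and were kept, 112 to 186 per population, with a median of 4238.5 to 7073.5 transcripts per cell. The design text names 1 mouse for TBGR and for C-myc Δ/ΔCd4, while the paper speaks of mice and gives a wider age range for the second experiment, and nothing ties libraries to separate animals. Each genotype is therefore treated as 1 mouse, libraries are not taken as biological replicates and no p-value is given. Intervals in brackets are exact 95% intervals and cover counting error only. The design text that accompanies the data calls the sorted cells NK1.1+, whereas the paper calls them NK1.1-, and this was not resolved.

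Initiation begins when eIF2 brings the initiator tRNA to the small ribosomal subunit together with eIF1, eIF1A, eIF5 and eIF3. The eIF4F complex recognises the mRNA cap and unwinds the leader, the subunit scans to the start codon, and eIF5B joins the large subunit. In elongation eEF1A delivers aminoacyl-tRNA and is recharged by the eEF1B exchange factor, eEF2 moves the ribosome along the mRNA, and eIF5A helps at difficult peptide bonds. In developing and activated T cells these factors are known for supporting growth and division, and several of their genes are known targets of C-Myc, which binds the E-box CACGTG.

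Promoters of Eif5a and Eif4a1 are shown because both genes hold an E-box just upstream and differed between the genotypes or populations below. The 250 bases before the start in RefSeq (GRCm38.p6, both on the minus strand, printed 5′ to 3′ in the direction of transcription) are given with the E-box in capitals. They lie at chr11:69921387-69921636 for Eif5a and at chr11:69672424-69672673 for Eif4a1, and the E-boxes start 74 and 189 bases before the start site.
Eif5a: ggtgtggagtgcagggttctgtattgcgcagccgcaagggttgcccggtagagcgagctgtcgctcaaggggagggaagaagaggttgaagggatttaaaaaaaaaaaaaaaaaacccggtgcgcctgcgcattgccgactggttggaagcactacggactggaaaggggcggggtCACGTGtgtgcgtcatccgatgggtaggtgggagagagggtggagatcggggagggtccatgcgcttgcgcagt
Eif4a1: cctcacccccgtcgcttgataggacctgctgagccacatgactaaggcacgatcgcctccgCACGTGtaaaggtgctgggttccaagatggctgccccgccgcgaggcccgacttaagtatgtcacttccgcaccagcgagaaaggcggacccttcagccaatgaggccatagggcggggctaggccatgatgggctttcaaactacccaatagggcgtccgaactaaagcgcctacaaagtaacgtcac
CACGTG reads the same on both strands, so a match counts for both. Of the 64 factor genes, 51 were in the RefSeq promoter table, and 12 of these (23.5%) held CACGTG between 250 bases before and 50 bases after a start. Among all 27025 genes listed there, 2187 (8.09%) held it, and 7.15% of all windows of this length. Besides Eif5a and Eif4a1, the other members with the motif were Eef2, Eef2k, Eif1b, Eif3a, Eif3f, Eif3k, Eif4e, Eif4g1, Eif4h and Eif5a2. A match is only a run of letters and was not tested as a binding site.

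The 64 genes together held 161632 of 9046408 transcripts, or 1.79%. Eef1a1, which codes for the aminoacyl-tRNA carrier eEF1A, alone made up 31.8% of the factor transcripts with a sum of 51363. It was followed by Eef2 (12767), the translocase, and Eef1b2 (11758), the exchange subunit of eEF1B. Eif5a summed to 7701 and Eef1g, the structural eEF1B subunit, to 7044. Next were the start codon factor Eif1 (6321), the cap-independent scaffold Eif4g2 (5840), the eIF3 core subunit Eif3a (4460), the helicase Eif4a1 (3370) and the eIF3 subunit Eif3h (2776). These 10 genes carried 70.2% of all factor transcripts, so a summed level mainly describes them. Since the tags come from 3′ ends, no correction for length was made between genes. Reads matching several genes were discarded, so counts of genes with close copies may be too low in this ranking.

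Between 13.6% and 67.8% of the transcripts of a library were assigned to gene names starting with Gm, most of them to Gm10800. The percentage of factor transcripts moved with it, from 0.775% in the CD122- cells of fl/fl library 4, where Gm names took 67.8%, to 2.37% in TBGR T-bet int library 1, where they took 14.6%. Levels below are therefore given as nCPM, that is CPM (transcript counts scaled to a common library total) after Gm names were left out of the total, a scale chosen after the data were seen. CPM without the prefix refers to the total of all genes. On this scale the summed level of the 64 genes was 24153 to 27783 in the TBGR libraries, 22216 to 28942 in the fl/fl libraries, and 23324 and 25366 in the CD122- libraries of the C-myc Δ/ΔCd4 mouse. It was 19316 and 19276 in the CD122+ T-bet- libraries of the C-myc Δ/ΔCd4 mouse, below every other library.

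**Figure D1:**
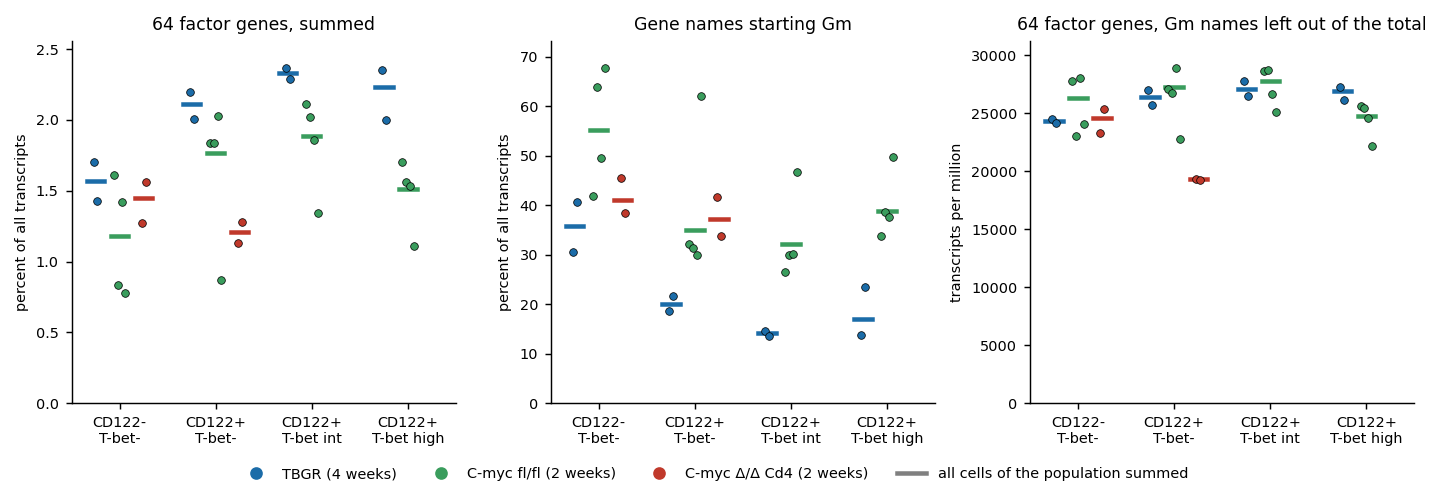
The left panel plots the 64 factor genes as percent of all transcripts, the middle panel the gene names starting with Gm, and the right panel the factor genes in nCPM, by sorted population on the x axis. Points are libraries and bars are all cells of a population; on the right the CD122+ T-bet- libraries of the C-myc Δ/ΔCd4 mouse (19316 and 19276) sit below all others.

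A few facts of the libraries bear on the comparisons. Il2rb, which codes for CD122, gave 2 to 8 transcripts in the CD122- populations and 159 to 514 in the CD122+ ones. Tbx21, which codes for T-bet, had 116 transcripts in TBGR and 42 in fl/fl T-bet high cells and at most 5 in a T-bet- population. Myc, the targeted gene, was at 73.8, 125, 135 and 10.6 CPM in the fl/fl and at 44.5 and 9.96 CPM in the C-myc Δ/ΔCd4 libraries of CD122+ T-bet- cells, and at 63.0, 14.0, 62.3 and 24.4 against 16.7 and 30.0 in CD122- cells. The genotypes overlapped in both populations, and whether these 3′ tags can tell the deleted allele was not tested. Of 9 αβ T cell markers 8 were listed and every one of these had transcripts in every population, with Trbc1 the highest. Malat1 was at 668 to 1721 CPM in fl/fl libraries and 3552 to 9175 CPM in those of the other mice. The same well barcodes recur, in 2 sets that are each used by 10 libraries, and 0 cells were found in more than one library. The 96 further barcodes of each library, which its well descriptions call empty, held 0.494 factor transcripts each, against 88.3 in wells with a cell. The fl/fl and C-myc Δ/ΔCd4 mice share their labelled age, but mouse and library cannot be told apart from genotype, and for the TBGR mouse age and experiment cannot either.

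A gene was compared between populations or genotypes when both groups together held at least 100 of its transcripts. The log2 ratio of its CPM was taken relative to the median gene of that comparison, which makes it the same with either total. A call of higher or lower required this relative log2 ratio to be at least 0.5 from 0. The libraries of the groups also had to be without overlap on the scale of all transcripts. For this, the CPM of the first group were divided by the ratio of the median gene. In fl/fl libraries that held both populations the sign had to be the same within every library. Of the 64 factor genes, 35 could be compared in all 9 comparisons and 17 in some. The remaining 12 stayed below 100 transcripts in every pair of groups. Of the 52 compared, 28 were called at least once and 24 never. The share of all genes called at least once was not computed, so these counts are not results about the factors.

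**Figure D2:**
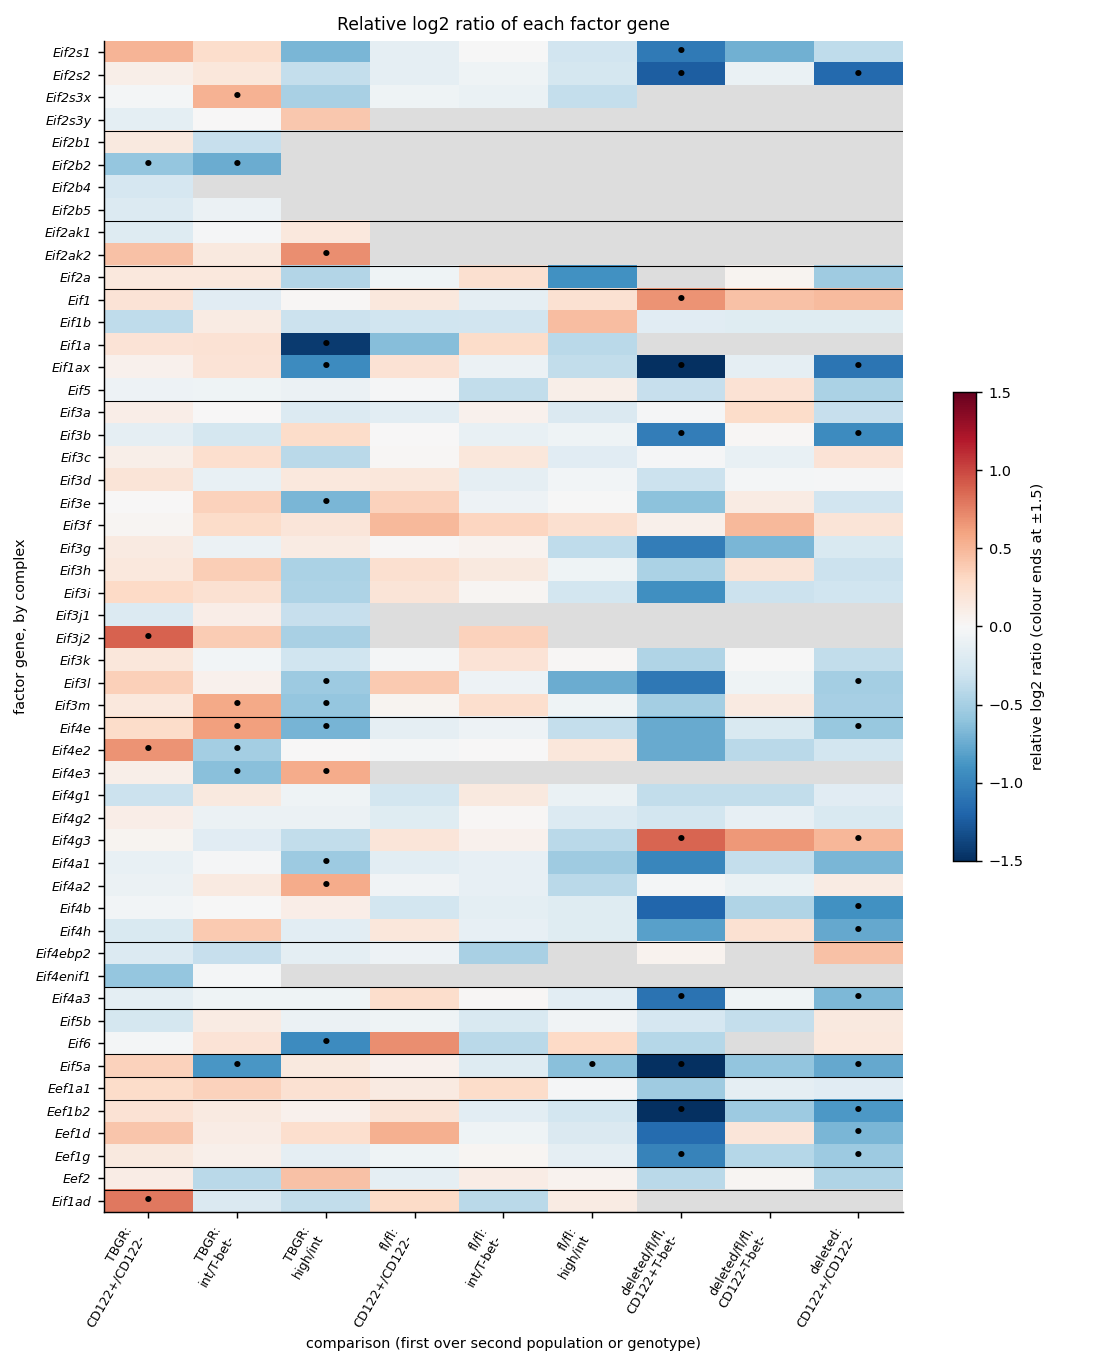
Relative log2 ratio of each compared factor gene (rows, grouped by complex) in the 9 comparisons (columns, first over second group); red is higher, blue lower, grey means fewer than 100 transcripts, and a dot marks a call. Within the C-myc Δ/ΔCd4 mouse 12 of 38 were called lower, against 20.5% of all genes, and 1 higher, against 24.1%. Between genotypes in CD122+ T-bet- cells 8 of 37 were lower, against 13.1%, and 2 higher, against 23.2%. At the last TBGR step 8 of 47 were lower, against 20.1%, and 3 higher, against 16.9%.

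The first question was how the factors change along the sorted stages of the TBGR mouse. From CD122- to CD122+ T-bet- cells few of them were called. Of 52 factor genes compared, 3 were called higher, against 14.4% of all 4057 genes compared, and 1 lower, against 14.0%, and their median relative log2 ratio was 0.09. The genes called higher were Eif3j2, which codes for the loosely bound eIF3 subunit j, at 0.89 (0.24 to 1.63), Eif1ad at 0.79 (0.24 to 1.41) and the cap-binding homologue Eif4e2 at 0.67 (0.31 to 1.07). The Eif4e2 level was 128 and 122 nCPM in CD122- and 203 and 188 in CD122+ T-bet- libraries. Eif2b2, a subunit of the eIF2 exchange factor, was called lower at -0.58 (-1.09 to -0.05). The calls of Eif3j2, Eif1ad and Eif2b2 rest on at most 108 transcripts per group, and each was lost without either CD122+ T-bet- library, and also without CD122- library 1 (Eif1ad, Eif3j2) or 2 (Eif2b2, Eif3j2). Cycling cells, defined as cells with at least 2 transcripts of a cell cycle gene list after thinning to 2000 transcripts, made up 14.9% of CD122- and 52.7% of CD122+ T-bet- cells, and the 8 markers of CD4+CD8+ thymocytes summed to 717 and 114 CPM. Their part in these ratios was not tested for single genes beyond the recomputation without cycling cells.

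At the step from CD122+ T-bet- to T-bet int the clearest difference was Eif5a. Its level was 1125 and 987 nCPM in CD122+ T-bet- and 566 and 551 in T-bet int libraries, before which it stood at 925 and 774 in CD122- cells. The T-bet int libraries lay close together and well below the others. The relative log2 ratio was -0.87 (-1.01 to -0.73), a 1.83-fold lower level, and the call held under all 13 alternatives, between -1.08 and -0.78. In the same comparison the median of the 51 factor genes was 0.08.

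The genes of the other elongation factors differed less at this step. Eef1a1 was at 8465 and 8386 nCPM in CD122+ T-bet- and 10585 and 9908 in T-bet int libraries, a ratio of 0.34 (0.30 to 0.38) that stayed under the call limit. Eef2 was at 2449 and 2544 before and 1765 and 1879 after the step, at -0.40 (-0.48 to -0.31), also under the limit. Eef1b2 was nearly level, at 1892 and 1742 against 1996 and 1835.

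In all, 3 of 51 factor genes were called higher at this step, against 10.3% of all genes, and 4 lower, against 12.8%. Besides Eif5a the lower genes were Eif2b2 (-0.74) and the cap-binding homologues Eif4e3 (-0.63) and Eif4e2 (-0.51). The higher genes were Eif4e (0.61, 0.22 to 1.01), the cap-binding protein itself, the eIF3 subunit Eif3m (0.57, 0.34 to 0.81) and Eif2s3x (0.52, 0.14 to 0.91), the eIF2 subunit γ. The cap-binding genes thus differed in direction. Eif4e was at 115 and 123 nCPM after the step, above both libraries before it, while Eif4e3 was at 127 and 123 before and 72.7 and 82.3 after. Without TBGR CD122+ T-bet- library 2 the calls of Eif4e, Eif3m and Eif2s3x ended and 0 factor genes were called higher. The call of Eif4e2 ended without CD122+ T-bet- library 1, that of Eif2s3x also without T-bet int library 2, and that of Eif2b2 without any 1 of the 4 libraries.

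From T-bet int to T-bet high, 8 of 47 factor genes were called lower, against 20.1% of all genes, and 3 higher, against 16.9%, so the share of calls was no larger than among all genes. The lower genes were spread over scanning, cap binding and eIF3. Eif1a and Eif1ax, near-identical genes for the scanning factor eIF1A, were both lower, at -1.44 (-2.23 to -0.77) and -0.94 (-1.47 to -0.47). Eif1a was at 95.8 and 104 nCPM in T-bet int and 27.1 and 50.3 in T-bet high libraries, without overlap. Eif1ax was at 147 and 161 before and 54.2 and 123 after. Reads shared by the copies were discarded in the counting, so both levels are uncertain.

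Eif6, which keeps the large subunit from joining too early, was at 124 and 128 nCPM in T-bet int and 59.1 and 67.1 in T-bet high cells, a ratio of -0.94 (-1.53 to -0.42). Eif4e, which had been higher at the previous step, was at 83.7 and 33.5 in T-bet high cells, a ratio of -0.70. Both steps share the T-bet int libraries, so the 2 values of Eif4e are not independent. In eIF3, Eif3e (-0.68, -0.94 to -0.43), Eif3m (-0.58) and Eif3l (-0.54) were lower. Eif3e was at 477 and 514 before and 303 and 268 after, and its call was kept under all 13 alternatives. The summed level of the 14 eIF3 genes was 4345 and 4151 nCPM in T-bet int and 3395 and 3187 in T-bet high libraries.

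The cap helicases differed from each other at this step. Eif4a1 was at 481 and 490 nCPM in T-bet int and 325 and 296 in T-bet high libraries, a ratio of -0.54 (-0.79 to -0.29). Its paralogue Eif4a2 was at 293 and 256 before and 382 and 386 after, a ratio of 0.56 (0.30 to 0.81). The other higher genes were Eif2ak2, the double-stranded RNA sensing eIF2α kinase, at 0.70 (0.24 to 1.15), and Eif4e3 at 0.56 (0.06 to 1.04). Eif2ak2 was at 85.2 and 82.3 before and 111 and 168 after. Eif5a did not continue one way, since the T-bet high libraries read 739 and 240 nCPM, one on either side of the T-bet int libraries, with 55 cells in the lower library and 92 in the higher. These libraries also differed in cycling cells (23.6% in the lower and 10.9% in the higher) and in Tbx21 (64.3 and 214 CPM). The calls of Eif1ax and Eif3m ended without T-bet high library 1, and those of Eif2ak2, Eif3l, Eif4a1 and Eif4e without library 2. Leaving out T-bet int library 1 ended those of Eif1a and Eif4e3, and leaving out its library 2 those of Eif1a, Eif3l and Eif4a2.

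Markers other than the factors moved with the last step. Cycling cells were 57.9% of T-bet int and 15.6% of T-bet high cells, and the 4 NKT cell markers, all listed, summed to 193 and 648 CPM. The highest sum in any population was 397 transcripts for Klrb1c, 136 for Plac8, 60 for Zbtb16 and 35 for Il4. The paper lists Klrb1c among the NK cell markers of its mature T-bet high IELPs, so this sum is not specific to NKT cells. The median of the factor genes was -0.15 over 47 genes with all cells. Without cycling cells it was 0.00 over the 29 that still reached 100 transcripts. Of these 29, 4 were called lower, and the share of all genes called was not computed for this setting. Of the genes above, Eif3e, Eif3l, Eif3m and Eif4a2 kept their call without cycling cells. The part of the NKT markers was not tested.

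**Figure D3:**
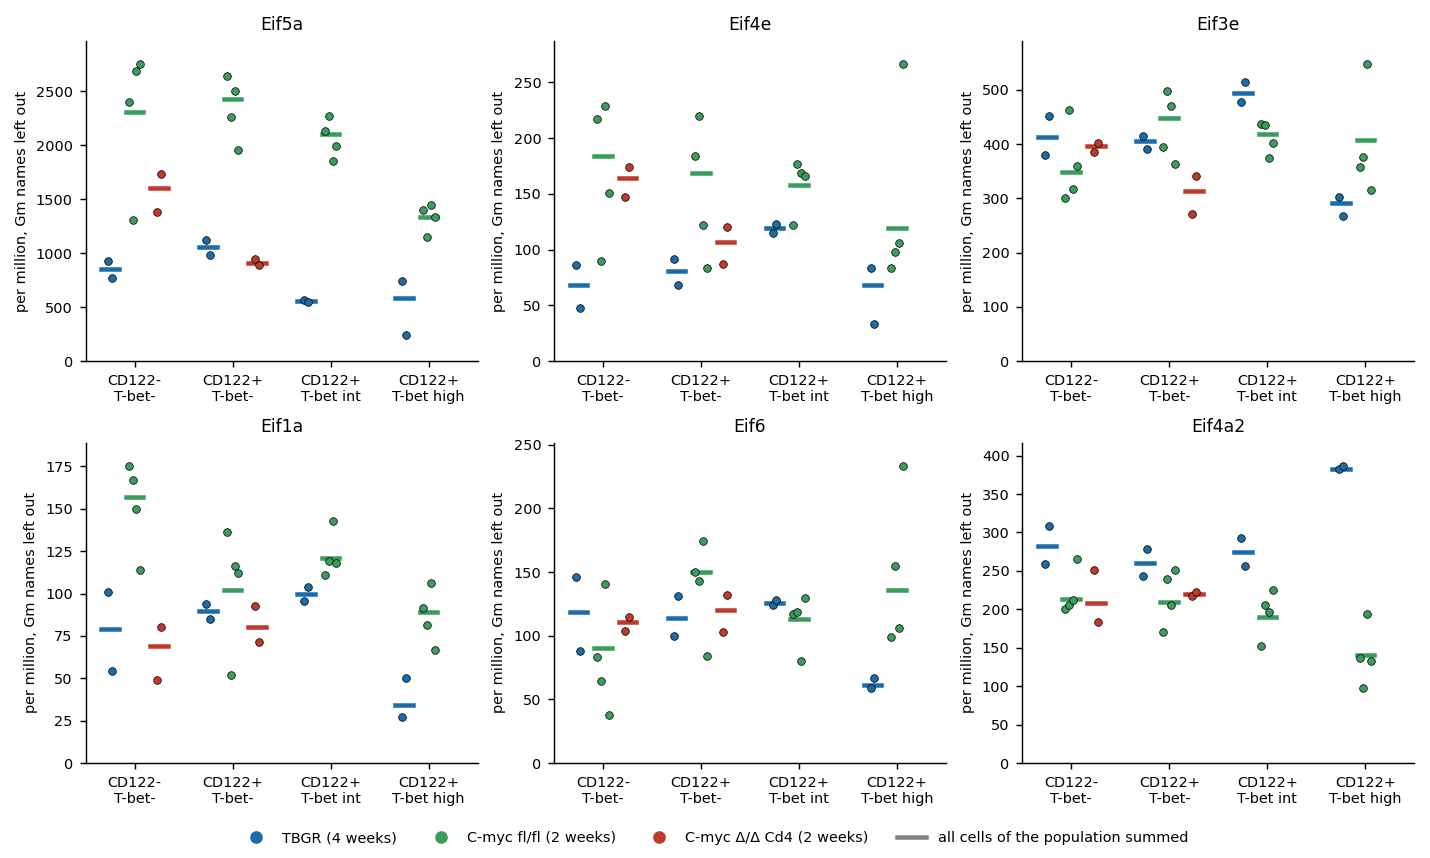
Levels of Eif5a, Eif4e, Eif3e, Eif1a, Eif6 and Eif4a2 in nCPM (y axis) by sorted population (x axis), with points for libraries and bars for all cells of a population. Eif5a of the TBGR mouse is lower in T-bet int (566 and 551) than in CD122+ T-bet- libraries (1125 and 987), and its fl/fl libraries are lower in T-bet high than in T-bet int cells.

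The same stages in the C-myc fl/fl mouse of 2 weeks gave 1 call in all. From CD122- to CD122+ T-bet- cells, 0 of 41 factor genes were called higher, against 2.26% of all genes, and 0 lower, against 4.29%, with a median of 0.01. From there to T-bet int cells, 0 of 42 were higher, against 1.32%, and 0 lower, against 0.454%, with a median of -0.06. From T-bet int to T-bet high cells 0 of 40 were higher, against 5.57%, and 1 lower, against 3.35%. No test was run on these counts. Here 31 of the 40 were below 0, and their median was -0.18. Each fl/fl population held 22 to 35 cells per library, fewer than in the TBGR libraries.

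The gene called lower in the fl/fl mouse was again Eif5a, but a step later. In fl/fl libraries 1 to 4 it was at 2638, 2262, 2505 and 1953 nCPM in CD122+ T-bet- cells, at 2129, 2273, 1853 and 1990 in T-bet int cells, and at 1400, 1152, 1448 and 1330 in T-bet high cells. The first 2 of these groups overlapped and the last lay below both. The ratio of T-bet high to T-bet int cells was -0.63 (-0.78 to -0.49), with -0.99 to -0.34 within the 4 libraries. The earlier step gave -0.19 (-0.30 to -0.07). Cycling cells made up 75.9% of T-bet int and 54.5% of T-bet high cells. Within them Eif5a was at 2225 nCPM (2093 to 2362) and 1551 (1410 to 1703), and in the other cells at 1535 (1300 to 1800) and 901 (753 to 1070). Without cycling cells the call was nevertheless lost, as it was with thinned cells, with cells of at least 3000 transcripts and with ribosomal protein genes left out of the total, over a range of -0.77 to -0.50. The difference in the step at which Eif5a was called between the mice was not tested, and age and experiment differ between them.

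The second question was how the factors differ where C-myc was deleted. In CD122+ T-bet- cells, 33 of the 37 factor genes compared were lower in the C-myc Δ/ΔCd4 than in the fl/fl mouse relative to the median gene. Their median relative log2 ratio was -0.53, with quartiles of -1.04 and -0.27, while those of all 2113 genes were -0.60 and 0.57. Of the 37 genes, 8 (21.6%) were called lower, against 13.1% of all genes, and 2 (5.41%) higher, against 23.2%. Ribosomal protein genes were lower still, with a median of -1.20 over 69 genes.

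The number of calls depended on fl/fl library 4, in which Gm names took 62.0% of the transcripts of CD122+ T-bet- cells. With Gm names left out of the total, 16 factor genes (43.2%) were called lower, against 23.0%, and 2 higher, against 22.1%. Without fl/fl library 4, 20 (54.1%) were called lower, against 27.7%, and 2 higher, against 25.4%. The Gm-free total added Eef1a1, Eif3e, Eif3g, Eif3i, Eif4a1, Eif4b, Eif4e2 and Eif4h to the 8 genes. The ratios themselves do not depend on the choice of total.

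Of the genes called, Eef1b2, which codes for the subunit of eEF1B that recharges eEF1A with GTP, had the ratio farthest from 0. It was at 2726, 2469, 2794 and 2009 nCPM in the fl/fl libraries and at 930 and 816 in the C-myc Δ/ΔCd4 libraries. No library overlapped, and the ratio was -1.71 (-1.87 to -1.54), or 3.26-fold lower. Eef1g was at 1244, 1218, 1481 and 1563 in fl/fl and 712 and 718 in C-myc Δ/ΔCd4 cells, or 2.01-fold lower. Eef1d, the further exchange subunit, had a ratio of -1.15 (-1.64 to -0.69) but was not called, because fl/fl library 4 at 83.7 lay below both C-myc Δ/ΔCd4 libraries at 97.9 and 143. The 4 genes of eEF1B and its partner Eef1e1 together stood at 3712 to 4700 nCPM in the fl/fl libraries and 1711 and 1772 in the others.

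Eif5a was at 2638, 2262, 2505 and 1953 nCPM in the fl/fl and 946 and 887 in the C-myc Δ/ΔCd4 libraries, again without overlap. Its ratio was -1.52 (-1.69 to -1.36), or 2.87-fold lower. Eif5a and Eef1b2 were named in the study from these same samples, so their direction here is not independent evidence. The TBGR mouse, wild type by its label and 4 weeks old, had Eif5a at 1125 and 987 in the same population, close to the C-myc Δ/ΔCd4 rather than to the fl/fl libraries. Its Eef1b2 at 1892 and 1742 lay between both. These levels come from another experiment, and no comparison was made.

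Both eIF2 subunit genes that could be compared were called lower, as was 1 of 4 scanning and start codon genes, of which 1 was called higher. Eif2s2, which codes for eIF2β, was at 680, 629, 612 and 586 nCPM in fl/fl and 250 and 316 in C-myc Δ/ΔCd4 libraries, a ratio of -1.24 (-1.55 to -0.94). Eif2s1, which codes for the phosphorylated subunit eIF2α, had -1.06 (-1.56 to -0.59). Eif1ax had -1.55 (-2.11 to -1.04), with 231, 201, 316 and 251 nCPM against 109 and 79.0. The eIF3 core subunit Eif3b had -1.04 and the exon junction helicase Eif4a3, which shares the fold of eIF4A but acts in the nucleus, had -1.11. Both calls ended without fl/fl library 1, fl/fl library 2 or C-myc Δ/ΔCd4 library 2, and that of Eif3b also without fl/fl library 3, while the other 8 genes kept theirs whichever library was left out.

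Members of one complex differed to unequal extents. Of 12 eIF3 genes compared 11 were below 0, with a median of -0.49, but Eif3f was at 0.08 (-0.23 to 0.40) and Eif3g at -1.04 (-1.51 to -0.59). In eIF4F, Eif4b, which stimulates the helicase, was at -1.19 (-1.56 to -0.83) and Eif4a1 at -0.98 (-1.25 to -0.72). Neither was called on the scale of all transcripts, since fl/fl library 4 overlapped, and both were called with Gm names left out. The scaffold gene Eif4g3 went the other way, at 150, 130, 155 and 112 nCPM in fl/fl and 277 and 282 in C-myc Δ/ΔCd4 libraries, a ratio of 0.87 (0.44 to 1.31). Eif1, at 700, 830, 992 and 447 in fl/fl and 1370 and 1406 in C-myc Δ/ΔCd4 libraries, was the other higher gene, with 0.67 (0.48 to 0.85), while its paralogue Eif1b was at -0.17. Eef1a1 was at 6765, 6766, 7405 and 6084 against 5311 and 5039, a ratio of -0.53 (-0.61 to -0.46).

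**Figure D4:**
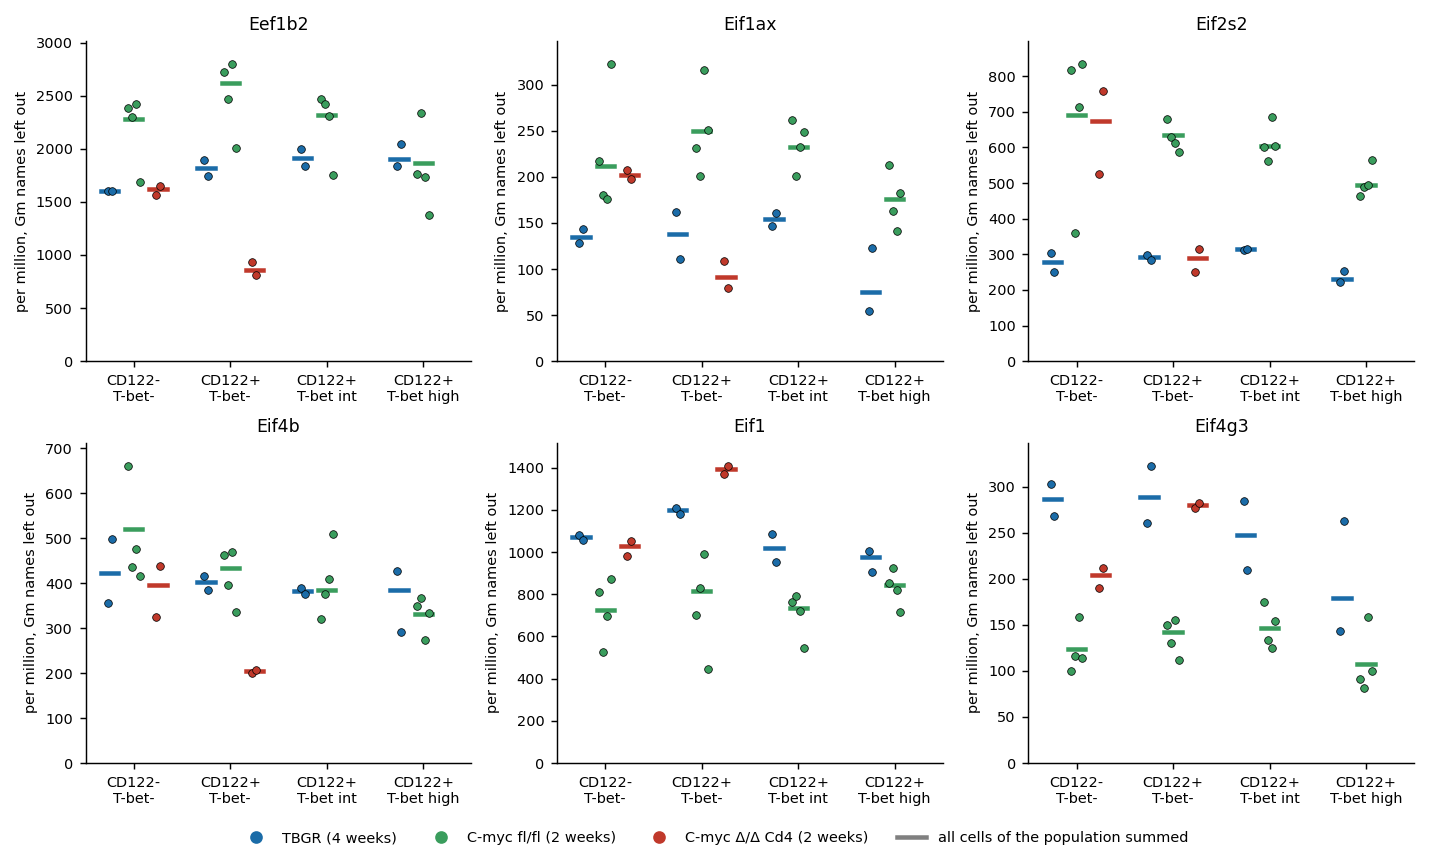
Levels of Eef1b2, Eif1ax, Eif2s2, Eif4b, Eif1 and Eif4g3 in nCPM (y axis) by sorted population (x axis), with points for libraries and bars for all cells of a population. In CD122+ T-bet- cells the C-myc Δ/ΔCd4 libraries of Eef1b2 (930 and 816) lie below and those of Eif1 (1370 and 1406) above all 4 fl/fl libraries.

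The same genotypes were compared in CD122- cells, the sorted population before CD122. There 0 of 36 factor genes were called higher, against 7.75% of all genes, and 0 lower, against 6.08%, and the median was -0.10. Eif5a was at 2397, 1311, 2690 and 2746 nCPM in fl/fl and 1377 and 1732 in C-myc Δ/ΔCd4 libraries, which overlap through fl/fl library 2. Eef1b2 was at 2388, 2302, 2425 and 1685 against 1567 and 1648, and the ratio was -0.55 (-0.70 to -0.41) for Eef1b2 and -0.59 (-0.73 to -0.44) for Eif5a. With Gm names left out of the total, Eef1b2, Eif2s1 (-0.72) and Eif3g (-0.69) were called lower and Eif4g3 (0.65) higher, and Eif4g3 was called under 8 of 16 alternatives. The share of all genes called with that total was not computed for CD122- cells, so these calls are not set against it. The ratios of Eef1b2 and Eif5a are closer to 0 than in CD122+ T-bet- cells, and the difference between the populations was not tested. In fl/fl libraries 2 and 4, Gm names took 63.8% and 67.8% of the transcripts of CD122- cells.

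Within the C-myc Δ/ΔCd4 mouse, CD122+ T-bet- cells had less of many factors than CD122- cells. Of 38 genes compared, 12 (31.6%) were called lower, against 20.5% of all genes, and 1 (2.63%) higher, against 24.1%, with a median of -0.36. This comparison shares its CD122+ T-bet- libraries with the one between genotypes. The lower genes included Eif2s2 (-1.17), Eif1ax (-1.09), Eif3b (-0.94), Eif4b (-0.91), Eef1b2 (-0.86), Eif5a (-0.77), the helicase cofactor Eif4h (-0.77), Eef1d (-0.69), Eif4a3 (-0.67) and Eif4e (-0.57). Eif4b was at 324 and 438 nCPM in CD122- and 201 and 207 in CD122+ T-bet- libraries. Eif2s2 was at 526 and 758 before and 250 and 316 after. Eif4g3 was the gene called higher, at 190 and 212 before and 277 and 282 after, with 0.50 (0.10 to 0.91). Eef1b2, Eif2s2, Eif4b, Eif4h and Eif5a kept their call whichever single library was left out. Leaving out CD122+ T-bet- library 1 ended those of Eef1d, Eef1g, Eif3l, Eif4a3 and Eif4e (7 lower calls left), and leaving out CD122- library 2 ended these and those of Eif1ax and Eif3b. The call of Eif4g3 ended without CD122- library 1.

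Cycling cells bear on both comparisons of the C-myc Δ/ΔCd4 mouse. They made up 74.6% of fl/fl and 33.6% of C-myc Δ/ΔCd4 CD122+ T-bet- cells, and 36.7% of C-myc Δ/ΔCd4 CD122- cells, but the summed cell cycle list was at 4244 CPM in the last and 819 in C-myc Δ/ΔCd4 CD122+ T-bet- cells. Within C-myc Δ/ΔCd4 CD122- cells Eef1b2 was at 1978 nCPM (1824 to 2142) in cycling and 854 (710 to 1019) in other cells, and Eif5a at 2034 (1877 to 2200) and 687 (559 to 837). In C-myc Δ/ΔCd4 CD122+ T-bet- cells the same split gave 870 (738 to 1019) and 858 (751 to 975) for Eef1b2. For Eif5a it gave 1029 (885 to 1191) and 836 (731 to 951).

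When cycling cells were left out, the 2 comparisons of the C-myc Δ/ΔCd4 mouse behaved differently. Within the mouse the median was -0.36 over 38 genes with all cells and 0.19 over the 19 that still reached 100 transcripts. Of these 19, 1 was called lower, Eif4b at -0.88, against 16.3% of all genes, and 1 higher, against 19.9%. Eef1b2 was then at -0.01 and Eif5a at 0.27. Between the genotypes the median was -0.53 over 37 genes with all cells and -0.64 over the 16 that still reached 100 transcripts. In both comparisons the medians cover different sets of genes, so their change does not describe the cycling cells alone. Between the genotypes and without cycling cells Eef1b2 was at -1.65, Eif5a at -0.83, Eif2s2 at -0.99 and Eef1g at -1.08. With 31 non-cycling fl/fl cells left over 4 libraries, Eef1g was the gene still called lower, against 7.05% of all genes, and 0 were higher, against 9.13%.

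**Figure D5:**
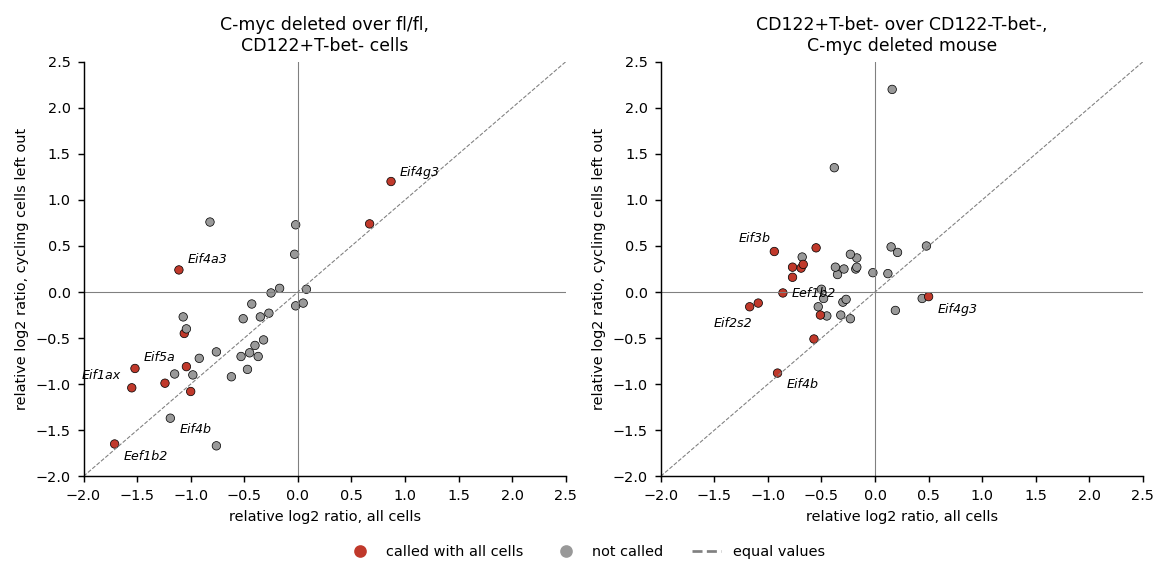
Relative log2 ratio with all cells (x axis) and with cycling cells left out (y axis) of every factor gene compared with all cells, between genotypes in CD122+ T-bet- cells (left) and within the C-myc Δ/ΔCd4 mouse (right); red points were called with all cells, and without cycling cells 16 of 37 (left) and 19 of 38 genes (right) still held 100 transcripts. Eef1b2 stays at -1.65 on the left and moves to -0.01 on the right.

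Malat1 and some markers of other cell types also differed between these groups. Malat1 was at 1347 CPM in fl/fl and 8275 CPM in C-myc Δ/ΔCd4 CD122+ T-bet- cells. The γδ T cell markers, 5 of 6 listed, summed to 825, 347, 162 and 244 CPM in the fl/fl libraries of this population. In its C-myc Δ/ΔCd4 libraries they summed to 804 and 811 CPM, so the genotypes overlapped. The 5 B cell markers, all listed, summed to 15.9 and 199 CPM in the C-myc Δ/ΔCd4 libraries of CD122+ T-bet- cells and to 23.0, 17.8, 9.02 and 21.2 in the fl/fl ones. The markers of CD4+CD8+ thymocytes summed to 756 and 128 CPM in CD122- and CD122+ T-bet- cells of the C-myc Δ/ΔCd4 mouse. Their part in the ratios was not tested.

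The RefSeq promoters gave no simple division of the genes that differed between genotypes. Of the 37 factor genes compared in CD122+ T-bet- cells, 30 had a promoter in the table, and 10 of these held CACGTG. Of the 7 called lower that had one, 1 held it, which was Eif5a. Without fl/fl library 4 it was 4 of 15 called lower (Eif4a1, Eif4e, Eif4h and Eif5a) and 6 of 15 not called lower. Nothing follows from these counts about binding of C-Myc.

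Genes that act with the factors were described by lists. Of 22 cytosolic aminoacyl-tRNA synthetase genes, which charge the tRNAs that eEF1A carries, 14 could be compared between the T-bet int and the T-bet high gate in TBGR, and 7 were called lower and 1 higher, with a median of -0.47, where 20.1% of all genes were called lower and 16.9% higher. The lower ones were led by Gars (-1.14), Iars (-0.76) and Eprs (-0.67), and Vars was higher at 0.50. In the first TBGR step 2 of 16 were called higher, Vars (1.23) and Rars (0.71), against 14.4% of all genes, and 0 lower. At the next step Dars (0.50) was the one called higher, of 16, against 10.3%. In the fl/fl mouse Farsb (-0.89) and Nars (-0.66) were called lower in T-bet high than in T-bet int cells, of 10, against 3.35% of all genes.

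Between the genotypes in CD122+ T-bet- cells, 1 of 6 synthetase genes was called lower, Farsb at -1.87, with a median of -0.92 over the 6. Within the C-myc Δ/ΔCd4 mouse it was 1 of 4, Eprs at -0.98, with a median of -0.49. The shares of all genes called were 13.1% lower and 23.2% higher between the genotypes, and 20.5% and 24.1% within the mouse. Of the cap, poly(A) and scanning list 6 of 11 could be compared in both, with medians of 0.51 and -0.07. Larp1, which binds the leaders of ribosomal protein and elongation factor mRNAs, was lower in both, at -1.28 and -0.98. Mknk2, an eIF4E kinase, was higher at 0.95 and 1.46, and Pdcd4, an inhibitor of the helicase eIF4A, at 0.93 and 0.73, and the helicase Ddx3x was higher at 0.63 between the genotypes. The release factor gene Gspt1 was lower in both, at -1.20 and -0.83, of 3 and 2 termination and recycling genes.

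In the TBGR mouse, 1 of 6 termination and recycling genes was called lower into T-bet int, Hbs1l at -0.91, against 12.8% of all genes, and the median of the 6 was 0.02. Into T-bet high cells it was 2 of 5, Denr (-0.97) and Gspt1 (-0.61), with a median of -0.44, against 20.1% of all genes called lower. The same list gave 0 calls at the fl/fl steps. Of the cap list 8 genes were compared at the last step. Pdcd4 was called higher at 0.55, against 16.9% of all genes, and Ncbp2 lower at -0.81, against 20.1%. At the same step in the fl/fl mouse 6 were compared, and Paip2 was called lower at -0.51, against 3.35%. Of the integrated stress response list 3 of 4 genes were compared at the TBGR steps and 1 within the C-myc Δ/ΔCd4 mouse. Atf4 was at 0.55 and -0.71 at the first 2 TBGR steps and at 0.55 within the C-myc Δ/ΔCd4 mouse. Ppp1r15a was at -0.57, -0.88 and 0.62 at the 3 TBGR steps. At these steps 14.4%, 10.3% and 16.9% of all genes were called higher and 14.0%, 12.8% and 20.1% lower. Within the C-myc Δ/ΔCd4 mouse 24.1% were called higher. The mTOR list (2 of 6 compared) gave 0 calls, and of 9 mitochondrial translation factors at most 1 and of the 2 hypusine enzymes of eIF5A 0 reached 100 transcripts.

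Paralogue pairs differed in level to unequal extents. Eif5a had 7701 transcripts and Eif5a2 108. Eif4a1 had 3370 and Eif4a2 1556, Eif1 had 6321 and Eif1b 782, and Eif1ax had 1003 and Eif1a 568. Eif2s3x had 628 and its Y-linked copy Eif2s3y 459. Eif3j2 had 503 and Eif3j1 388. Reads that matched several genes were discarded by the authors, so levels of Eif1a and Eif1ax, Eif2s3x and Eif2s3y, and Eif3j1 and Eif3j2 may be too low where the copies share sequence.

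The 12 factor genes below the minimum everywhere were Eif2c5, Eef2k, Eif2ak4, Eif2ak3, Eif5a2, Eif2b3, Eif4ebp1, Eif2d, Eef2kmt, Eif4ebp3, Eefsec and Eef1e1. Their sums ran from 4 for Eif2c5 to 290 for Eef1e1 over all 1413 cells. They include the eEF2 kinase, the eIF2α kinases Eif2ak3 (PERK, 85 transcripts) and Eif2ak4 (GCN2, 82), and the eIF4E inhibitor Eif4ebp1 (135). Of the eIF4E binding proteins Eif4ebp2 had the most transcripts, 668, and it was compared 7 times and never called. The eIF2α kinase genes Eif2ak1 and Eif2ak2 could each be compared 3 times, with the 1 call of Eif2ak2 given above. Among the 24 genes compared and never called were also Eef1a1, Eef2, Eif3a, Eif3h, Eif4g2 and Eif5b, which codes for the subunit joining factor.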

How the data were processed

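Single-cell CEL-Seq2 tables of 20 libraries were used. Per the labels and the paper's methods, the authors demultiplexed reads (bcl2fastq 2.17.1.14), aligned them to transcripts with BWA 0.6.2-r126, discarded reads matching several genes and counted UMIs of 6 bases. The values the authors deposited are estimated counts of transcripts after correction for repeated UMIs, without normalization. All 3270251 values above 0 were ones this conversion can give, and they were rounded to whole transcripts. Populations came from the well descriptions, and libraries of a population are numbered as in their labels. Neither mitochondrial genes, nor the 92 spike-ins, nor the 96 barcodes without a cell in each library entered the totals. Doublets were not searched for, since cells were sorted singly.

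Transcripts were summed over cells per population and library, and 0.5 transcripts were added before log2 ratios. Ratio intervals are exact conditional binomial, level intervals exact Poisson. Named genes are all those called in a comparison (the 10 largest in a direction where there were more), Eif5a, Eef1b2, the paralogues and the 10 largest sums. Members, lists and rules were chosen with earlier results of these data known. Alternatives were other scalings, minimums, depths and cell sets, and each library left out in turn. Scripts ran in Python 3.11.15 with numpy 2.4.6, scipy 1.17.1 and pandas 2.3.3 and were tested on simulated data.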

Additional observations from a re-analysis of the deposited data

Results flagged for a closer look

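Among 148 groups of 4 fl/fl libraries, formed from 36 genes and the summed factors, 8 had a library farther from the others than Dixon's 95% limit, where chance gives about 1 in 20 groups, or 7.40. Libraries numbered 4 were the outlying ones in 7 of the 8. These are different libraries for CD122+ T-bet- and for T-bet high cells, with low values in the first and high values in the second. In CD122+ T-bet- cells it had 371 CPM of Eef2 (others 1180 to 1295), 223 of Eif2s2 (429 to 461), 286 of Eif4g2 (650 to 721) and 21.2 of Eif3l (230 to 244, with 2 transcripts in library 4), and the factors summed to 0.867% of its transcripts (others 1.84% to 2.03%). Gm names took 62.0% of the transcripts of that library, and the part of this in the low values was not tested gene by gene. In T-bet high cells library 4 had 75.1 CPM of Eif3j2 (others 35.1 to 38.5) and 134 of Eif4e (55.4 to 66.0), from 9 and 16 transcripts. Eif3a was at 408 CPM in T-bet high library 1 and at 311 to 325 in the others.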

How the results depend on the processing

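The median of the factor genes was recomputed 139 times over all comparisons. In 35 cases it moved by more than the spread between libraries, and the cause was not tested except where stated. Leaving out 1 library gave 0.05 to 0.19 for the first TBGR step, -0.04 to 0.14 for the second and -0.17 to -0.08 for the third. It gave -0.22 to -0.09 for fl/fl T-bet high over T-bet int, -0.62 to -0.39 between genotypes in CD122+ T-bet- cells and -0.36 to -0.24 within the C-myc Δ/ΔCd4 mouse. Without cycling cells the medians of the TBGR steps to T-bet int and T-bet high were -0.01 and 0.00, that of the first fl/fl step 0.22, and those of the C-myc Δ/ΔCd4 comparisons -0.64 (between genotypes) and 0.19 (within the mouse). Thinning to 2000 transcripts, which leaves 14 to 26 of the genes above the minimum, gave -0.02, -0.16, -0.11, -0.25, -0.43 and -0.05 for the second and the third TBGR step, the first and the third fl/fl step, and those C-myc Δ/ΔCd4 comparisons. Size factors by the median of ratios gave 0.16, -0.22 and -0.44 for the second and the third TBGR step and within the C-myc Δ/ΔCd4 mouse. A minimum of 10 transcripts gave -0.12 for the third TBGR step, 0.01 for the second fl/fl step and -0.66 between genotypes, and cells of at least 3000 transcripts gave -0.19 for the third TBGR step. Leaving out fl/fl libraries 4 and the CD122- cells of library 2, chosen after seeing the data, gave -0.09 for the third fl/fl step. With no centring, also added, the shift of the median gene enters by construction, and the medians were 0.37 and -0.28 for the first and the third TBGR step, 0.56 and -0.36 for the first and the third fl/fl step and 0.35 between genotypes in CD122- cells.

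Numbers of factor genes called ranged over all alternatives as follows. In the TBGR steps 1 to 9, 0 to 4 and 1 to 7 were higher and 0 to 3, 2 to 6 and 2 to 15 lower. In the fl/fl steps at most 1 was higher and at most 4 lower. Between genotypes 0 to 6 were higher and 1 to 20 lower in CD122+ T-bet- cells, and 0 to 6 higher and 0 to 5 lower in CD122- cells. Within the C-myc Δ/ΔCd4 mouse 0 to 2 were higher and 1 to 22 lower, with 7 lower without CD122+ T-bet- library 1 and 6 without CD122- library 2. Between genotypes in CD122+ T-bet- cells 37 genes were compared with all cells and 16 without cycling cells. There 7.05% of all genes were called lower without cycling cells and 27.7% without fl/fl library 4. For most settings this share was not computed, so the ranges are not results about the factors alone. No paired analysis was possible because the results come from no test. Ratios within the fl/fl libraries that held both populations entered the calls directly.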
